A study of Mus musculus with 8 samples.

Results

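The genes described here encode the machinery that moves newly made proteins into the endoplasmic reticulum (ER) and carries them in coated vesicles between the ER and the Golgi. They were chosen by gene symbol: SEC11, SEC13, SEC16, SEC22 to SEC24, SEC31 and SEC61 to SEC63 genes, coatomer (COP) genes with Arcn1, TMED genes, SSR genes, signal recognition particle (SRP) genes with the receptor gene Srpr, Sar1a, Sar1b and the SPCS genes. The symbols picked 60 of the 17276 genes in the files. The study measured messenger RNA in hepatocytes of wild-type male C57BL/6N mice aged 6 to 8 weeks, with 4 libraries of cells exposed to shear stress (the drag of moving fluid on a cell surface) and 4 libraries of cells in static culture. All groups share the strain, genotype and sex. How strong the stress was and how long it lasted is not in the labels. Nor do they tell if replicates were separate animals or cultures, so p-values measure only the spread between these libraries, which may be technical.

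A secretory or membrane protein is recognised on the ribosome by the SRP, handed to the SRP receptor and threaded through the SEC61 channel, and its signal peptide is cut off by signal peptidase. Cargo then leaves the ER in vesicles coated with COPII and is returned from the Golgi in vesicles coated with COPI, while p24 (TMED) proteins sort cargo into both. Hepatocytes secrete most plasma proteins and lipoproteins by this route.

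The total of estimated counts lay between 16225843 and 16732203 under shear stress and between 15067056 and 17935566 in static culture. Hepatocyte markers such as Alb and Ttr summed to between 43461 and 61255 TPM (a level per length, scaled to the same total in each library) under shear stress and between 57767 and 71517 TPM in static culture, and 5 of 7 were called lower under shear stress. This count depended on the fit: it was 6 with the replicate number as a block, which adds Cyp2e1, and 1 (Ttr) with library totals in place of the scaling factors. The markers of other liver cell types were low except for 4 cholangiocyte genes, which summed to between 247 and 1952 TPM under shear stress and between 91.5 and 1311 TPM in static culture, mostly from Spp1. The summed markers ranged from 24.9 to 78.4 TPM under shear stress and from 27.1 to 68.1 TPM in static culture for 6 macrophage genes, almost all from Cd68, and from 6.05 to 16.4 TPM under shear stress and from 5.72 to 11.1 TPM in static culture for 8 sinusoidal endothelial genes. They ranged from 2.52 to 3.96 TPM under shear stress and from 1.96 to 6.43 TPM in static culture for 8 stellate cell genes, and from 0 to 0.89 TPM under shear stress and from 3.08 to 4.08 TPM in static culture for 4 lymphocyte genes. No marker that was found was at 0 in every library. Planned markers without an entry under their symbol were Tf (hepatocyte), Vsig4 (macrophage), Krt7 and Cftr (cholangiocyte), and Cd3e, Cd3g and Nkg7 (lymphocyte). They are in none of the sums. Of these other cell types, 1 endothelial gene was called higher, and 1 endothelial and 1 lymphocyte gene were called lower (Stab1, Pecam1 and Cd79a). The block also called the endothelial gene Oit3 and the cholangiocyte genes Spp1 and Epcam higher and the stellate cell gene Dcn lower, and library totals also called Oit3 and Epcam higher. Their part in the results was not tested. In such bulk samples a smaller number of cells of a type and less RNA per cell cannot be told apart.

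Of the tested genes of this machinery, 34 lay within 0.25 of static culture on the log2 scale, and the larger changes were in single subunits such as Tmed3, Copg2 and Spcs3 (higher) and Sec24a and Sar1b (lower). Of the 60 genes, 59 had enough counts to be tested and Tmed6 did not. Under shear stress 13 were higher and 8 lower (edgeR quasi-likelihood test, Benjamini-Hochberg adjusted p under 0.05 over all 11747 tested genes), and 38 were not called. Of all tested genes 48.6% were called, 24.9% higher and 23.7% lower, against 35.6% of the members. At a mean level of 50 CPM (counts relative to the scaled library total) or more, 50% of tested genes were called, 13.2% higher and 36.7% lower. Of the 40 members at that level 7 were higher and 8 lower. The median absolute log2 fold change of shear stress over static was 0.20 for the members and 0.45 for all tested genes. The largest absolute value among the members was 1.04, and 7 members were called with a change of at least 1.5-fold, a size that 33.6% of all tested genes reached. The same 21 members were called and did not overlap between the groups, while 45.3% of all tested genes did not overlap.

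The direction of the smaller changes was relative to the scaling. With library totals in place of the trimmed mean (TMM) factors, the median log2 fold change of all tested genes moved to 0.22 and that of the members to 0.23, and 21 members were then called higher and 4 lower. In that scaling 48.5% of all tested genes were called, 35.4% higher and 13.1% lower. The share of called members that were higher was 61.9% with TMM factors. It was 76.2% with upper quartile scaling, 84% after scaling by library totals and 85.2% on the FPKM values. The share over all called genes moved with it, at 51.2% with TMM factors, 64.8% with upper quartile scaling, 73% with library totals and 73.5% on FPKM. Upper quartile scaling called 5 members lower, where 48% of all tested genes were called, 31.1% higher and 16.9% lower. On FPKM 23 members were higher and 4 lower with a pseudocount of 1 or 0.1. There 48.1% of all tested genes were called with a pseudocount of 1, 35.4% higher and 12.8% lower, and 47.9% with 0.1, 35.2% higher and 12.7% lower. All 21 called members kept their direction in each of the 17 alternative settings, and 14 of them were called in all of these. Without shear stress replicate 2, 5 members were called lower in place of 8. For this and the other fits with a library left out, the share of all tested genes called is not given here. Such counts are therefore not read as a result about the members or lists. With the replicate number as a block, 15 members were higher and 10 lower, against 61.1% of all tested genes called, 30.1% higher and 31% lower.

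**Figure D1:**
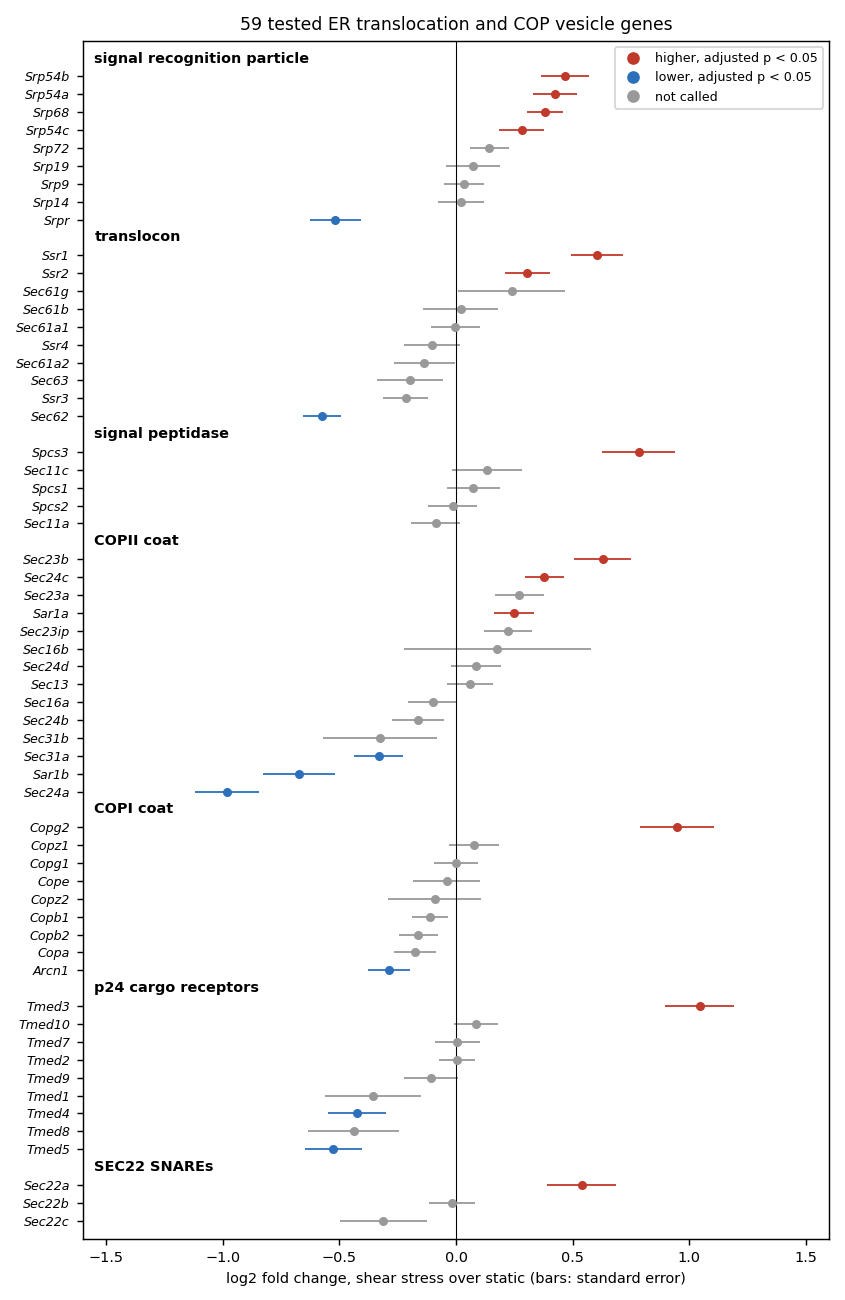
Log2 fold change of shear stress over static for the 59 tested members, grouped by role, with standard errors as bars. Red points were called higher (13), blue points lower (8) and grey points were not called (38), and most points lie within 0.25 of 0.

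Promoter sequence is a feature that the choice of members did not use. RefSeq promoters of GRCm38.p6, from 250 bases before to 50 bases after the gene start, were found for 51 of the 60 genes. These genes have 55 windows, since Sec16b, Sec23b, Sec31a and Tmed1 have a pair each, and a gene counts as holding a motif when any of its windows does. The letters CCACGT, the core shared by binding sites of XBP1 and ATF6, lay on either strand in 22 of these 51 genes (43.1%), against 13.3% of 9487 tested genes and 9.39% of all 27025 genes of the table. By window it lay in 23 of 55 (41.8%), against 11.1% of 12108 windows of tested genes. The GC content was 59.3% ± 7.36 in member promoters and 60.6% ± 9.04 in those of tested genes (SD over genes). The longer site TGACGTGG (UPRE), which contains the reverse complement of that core, lay in 5 of 51 (9.80%), against 0.991% of tested genes. The ER stress elements ERSE (CCAAT and CCACG at a fixed distance) and ERSE-II (ATTGG and CCACG side by side with a base between), which can overlap the core, were searched on both strands too. They were in none of the 51, and in 0.19% and 0.0949% of tested genes. CCAAT alone was in 45.1% of member promoters and 43.6% of tested ones. By call, CCACGT was in 5 of 10 genes that were higher, 1 of 7 that were lower and 16 of 34 of those not called (Tmed6, not tested, among them), and the 5 promoters with TGACGTGG belonged to members not called (Sec23a, Copb2, Copb1, Sec24d and Sec16b). The match among the lower members was in Sec31a, in the window inside the gene and not in the one at its start. These matches are a description of letters, without a test.

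The 250 bases before the start are printed for 7 genes, 5′ to 3′ on the strand of the gene, in lower case with matches to CCACGT or TGACGTGG on either strand in capitals. Tmed3 (chr9:89705044-89705293, minus strand), Ssr1 (chr13:37994209-37994458, minus strand), Sec24c (chr14:20674071-20674320, plus strand) and Sar1a (chr10:61680035-61680284, plus strand) are shown as members that were higher and hold the core before the start. Sec24d (chr3:123267246-123267495, plus strand) and Copb1 (chr7:114254681-114254930, minus strand) hold the longer site and were not called. Sar1b (chr11:51763413-51763662, plus strand) was lower and holds neither. The start used in the promoter table lies inside the gene bounds of RefSeq for Sec24c and Sec24d.
Tmed3: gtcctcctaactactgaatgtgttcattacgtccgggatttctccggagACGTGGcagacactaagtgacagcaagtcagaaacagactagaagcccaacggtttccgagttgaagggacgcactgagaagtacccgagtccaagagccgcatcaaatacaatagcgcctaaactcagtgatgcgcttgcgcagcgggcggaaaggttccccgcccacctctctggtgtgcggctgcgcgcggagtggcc
Ssr1: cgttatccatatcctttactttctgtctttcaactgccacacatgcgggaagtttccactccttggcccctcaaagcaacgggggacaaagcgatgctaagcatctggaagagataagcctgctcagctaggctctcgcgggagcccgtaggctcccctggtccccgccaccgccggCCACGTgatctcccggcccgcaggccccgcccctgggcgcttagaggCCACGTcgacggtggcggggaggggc
Sec24c: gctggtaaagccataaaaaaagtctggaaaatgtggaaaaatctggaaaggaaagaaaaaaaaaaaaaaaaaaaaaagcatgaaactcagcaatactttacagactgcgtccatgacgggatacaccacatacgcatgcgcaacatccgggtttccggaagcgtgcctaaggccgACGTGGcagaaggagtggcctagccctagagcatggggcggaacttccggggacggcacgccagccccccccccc
Sar1a: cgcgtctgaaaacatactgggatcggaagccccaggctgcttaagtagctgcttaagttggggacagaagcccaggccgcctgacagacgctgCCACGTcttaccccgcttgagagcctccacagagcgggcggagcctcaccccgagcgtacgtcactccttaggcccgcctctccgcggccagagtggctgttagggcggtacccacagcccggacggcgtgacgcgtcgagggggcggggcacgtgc
Sec24d: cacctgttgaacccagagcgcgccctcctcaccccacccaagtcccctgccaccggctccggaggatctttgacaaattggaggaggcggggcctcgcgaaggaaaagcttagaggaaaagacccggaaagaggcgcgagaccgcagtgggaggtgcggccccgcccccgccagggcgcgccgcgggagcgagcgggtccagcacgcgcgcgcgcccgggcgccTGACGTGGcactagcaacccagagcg
Copb1: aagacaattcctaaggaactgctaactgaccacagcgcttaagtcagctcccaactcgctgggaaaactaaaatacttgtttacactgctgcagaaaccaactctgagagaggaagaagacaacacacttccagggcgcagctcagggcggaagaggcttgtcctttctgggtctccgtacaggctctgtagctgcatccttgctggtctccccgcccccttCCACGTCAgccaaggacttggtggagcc
Sar1b: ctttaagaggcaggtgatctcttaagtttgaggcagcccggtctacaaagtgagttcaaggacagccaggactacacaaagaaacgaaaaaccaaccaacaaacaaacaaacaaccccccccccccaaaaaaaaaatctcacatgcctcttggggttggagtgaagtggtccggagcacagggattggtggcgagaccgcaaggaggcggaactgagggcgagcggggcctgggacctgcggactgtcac
The match in Tmed3 began 201 bases before the start, in Sar1a 157 and in Sec24c 75. Ssr1 held a pair of matches, at 73 and 26 bases before the start. The longer site began 26 bases before the start in Sec24d and 28 in Copb1.

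Among the SRP genes the calls were higher for Srp68 and the Srp54 copies and lower for the receptor gene. Of 9 genes of this step, 4 were higher, 1 lower and 4 not called. Srpr, which encodes the alpha subunit of the SRP receptor (chromosome 9, 35211203 to 35217003 of GRCm38), had 287, 259, 317 and 247 CPM in the shear stress libraries and 378, 388, 452 and 371 CPM in the static libraries. Every shear stress library was below every static library (log2 fold change -0.52 ± 0.11, SE, adjusted p = 0.00379). Srp68, a scaffold subunit that pairs with Srp72, had 99.6, 111, 104 and 106 CPM in the shear stress libraries and 76.5, 84.01, 80.2 and 81.96 CPM in the static libraries. All shear stress libraries were above all static libraries (0.38 ± 0.08, adjusted p = 0.00337).

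Srp54a, Srp54b and Srp54c encode the GTPase subunit that binds the signal peptide. They are copies in a row on chromosome 12, with gaps of 39.7 kb and 40.9 kb, and share sequence, so that the division of reads among them is uncertain. Srp54b had 67.6, 54.1, 71.6 and 69.01 CPM in the shear stress libraries and 48.6, 48.00, 45.3 and 47.8 CPM in the static libraries (0.47 ± 0.10, adjusted p = 0.00512). Srp54a had 39.4, 44.9, 41.2 and 39.1 CPM in the shear stress libraries and 29.9, 32.6, 28.3 and 31.9 CPM in the static libraries (0.42 ± 0.10, adjusted p = 0.00531). Neither overlapped between the groups. Srp54c changed by 0.28 ± 0.10 (adjusted p = 0.0357), and its adjusted p reached 0.097 when single libraries were left out. Summed over the copies, which does not depend on that division, the level was 154, 143, 162 and 155 CPM under shear stress and 113, 124, 112 and 116 CPM in static culture, 1.32 times higher under shear stress. Since none of the copies overlapped between the groups, their sum could not overlap either. Its p of 0.0286 by a two-sided exact permutation test, the smallest that 4 against 4 libraries allow, was thus fixed in advance. It adds nothing to the calls of the single copies. Srp72, the Alu domain genes Srp9 and Srp14 and Srp19 had log2 fold changes between 0.02 and 0.14 and were not called.

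Around the translocation channel, 2 of 10 genes were higher, 1 lower and 7 not called. Sec62, which encodes a channel partner used by short and post-translationally imported proteins and also a receptor for the removal of excess ER, had 141, 162, 162 and 154 CPM in the shear stress libraries and 235, 237, 223 and 226 CPM in the static libraries. It had the lowest p of the members at this step, and all shear stress libraries were below all static libraries (-0.57 ± 0.08, adjusted p = 0.000516). Ssr1, the alpha subunit of the translocon-associated protein (TRAP) complex, which assists the entry of some signal peptides, had 187, 170.4, 167 and 187 CPM in the shear stress libraries and 119.7, 95.2, 121 and 132 CPM in the static libraries (0.60 ± 0.11, adjusted p = 0.00184). Ssr2, the beta subunit, had 161, 146, 141 and 146 CPM in the shear stress libraries and 113, 106, 133 and 129 CPM in the static libraries (0.31 ± 0.10, adjusted p = 0.0262). For both genes the groups did not overlap. The call of Ssr2 was lost without shear stress replicate 1 or 4 or static replicate 1 or 2 (adjusted p up to 0.0698). The remaining TRAP genes Ssr3 and Ssr4, Sec63 (the partner of Sec62) and the SEC61 channel genes had log2 fold changes between -0.22 and 0.24 and were not called. With the replicate number as a block, Ssr3 was called lower (adjusted p = 0.0167). Sec61b, the most abundant of the 60 genes per length, had 269.9, 303, 274 and 293 TPM in the shear stress libraries and 207, 200.1, 306 and 255 TPM in the static libraries. The log2 fold change from its counts was 0.02 ± 0.16 (adjusted p = 0.929), and its libraries overlapped. Without static replicate 2, Ssr3 was called lower beside Sec62, which makes 2 genes.

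Within the channel, the TPM ratio of Sec61a1 to Sec61a2, alternative alpha subunits, was 12.96 ± 1.25 under shear stress and 10.4 ± 1.74 in static culture (SD, n = 4 each). From counts, the log2 fold changes of these genes were -0.003 and -0.14, and neither was called. With expected counts in place of TPM, their ratio did not pass the unadjusted exact permutation test.

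Of the 5 signal peptidase genes, Spcs3 was higher and the others were not called. Spcs3, an accessory subunit, had 66.8, 59.4, 50.8 and 64.03 CPM in the shear stress libraries and 40.5, 31.9, 26.4 and 41.2 CPM in the static libraries (0.78 ± 0.16, adjusted p = 0.00297), with no overlap. Spcs1, another accessory subunit and the most abundant of these genes per length, had 160.3, 152, 146 and 148 TPM in the shear stress libraries and 129, 111, 129 and 124 TPM in the static libraries. On counts it differed by 0.07 ± 0.11 (adjusted p = 0.606). The catalytic subunit genes Sec11a and Sec11c were not called, and the ratio of Sec11a to Sec11c in TPM within a library was 2.64 ± 0.176 under shear stress and 3.09 ± 0.305 in static culture (SD, n = 4 each; two-sided exact permutation test, p = 0.0571, adjusted over 11 paralog pairs 0.0898).

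**Figure D2:**
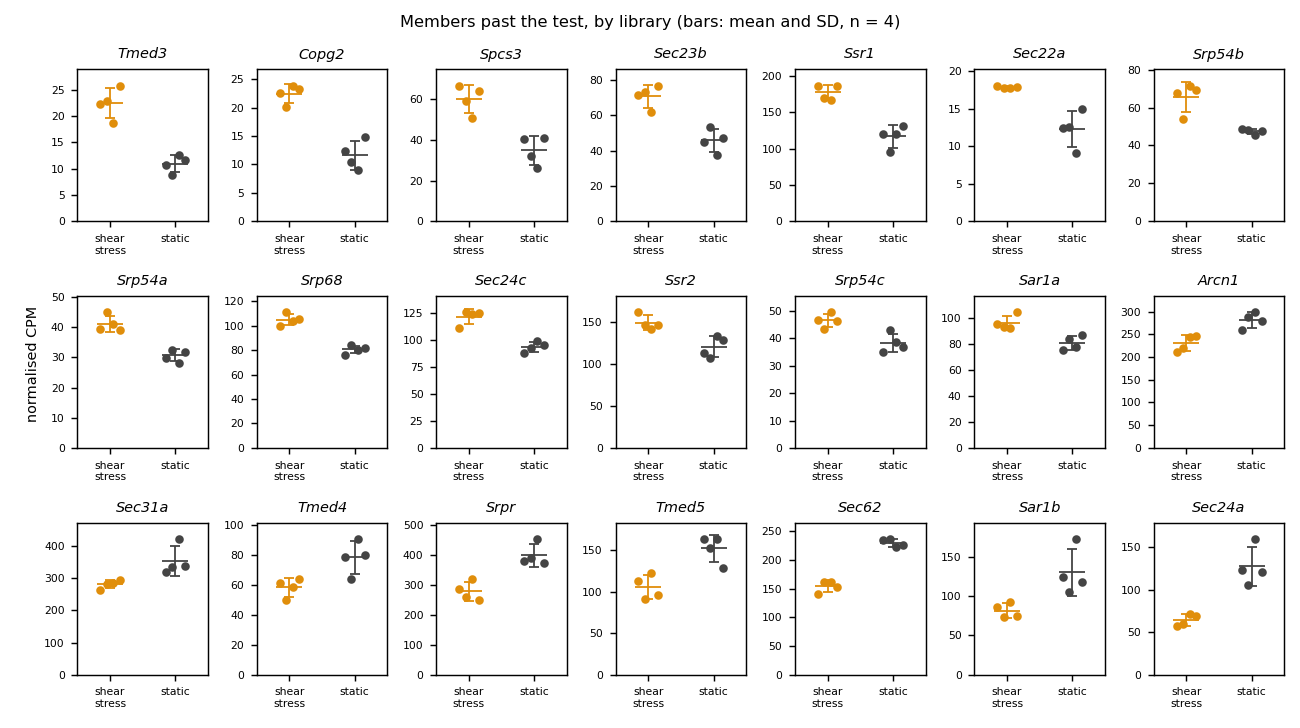
Normalised CPM in each library of the 21 members past the test, ordered from the largest rise (Tmed3) to the largest fall (Sec24a). Orange points are the 4 shear stress libraries, grey points the 4 static libraries, bars give the mean and SD, and the groups do not overlap in any panel.

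The COPII coat held calls in both directions, with paralogs of Sar1 and of Sec24 on both sides. Of 14 genes 3 were higher, 3 lower and 8 not called. Sec24a, which encodes a cargo-binding subunit of the inner coat (chromosome 11, 51692263 to 51757161), had 57.6, 59.96, 71.6 and 69.6 CPM in the shear stress libraries and 124, 106, 160.2 and 121 CPM in the static libraries. It fell more than any other member (-0.98 ± 0.14, adjusted p = 0.00048), and every shear stress library was below every static library. Sar1b, a GTPase that starts coat assembly and in humans is needed to secrete intestinal lipoproteins (chromosome 11, 51763663 to 51791953), had 86.9, 74.2, 92.4 and 74.5 CPM in the shear stress libraries and 125, 106, 174 and 118 CPM in the static libraries. All shear stress libraries were below all static libraries (-0.67 ± 0.16, adjusted p = 0.00604). Its paralog Sar1a had 95.8, 93.7, 92.2 and 105 CPM in the shear stress libraries and 75.9, 83.95, 77.8 and 87.5 CPM in the static libraries, with every shear stress library above every static library. This rise was small (0.25 ± 0.09, adjusted p = 0.0376), and its adjusted p reached 0.113 when single libraries were left out.

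Sec23b, a subunit of the inner coat that activates the GTPase and is mutated in a human congenital anaemia, had 71.4, 73.00, 61.7 and 76.7 CPM in the shear stress libraries and 45.1, 53.1, 37.4 and 47.2 CPM in the static libraries (0.63 ± 0.12, adjusted p = 0.00255). Sec24c had 111, 125, 124 and 125 CPM in the shear stress libraries and 87.4, 91.9, 98.9 and 95.1 CPM in the static libraries (0.38 ± 0.08, adjusted p = 0.00476). The groups overlapped for neither gene. Sec23a differed by 0.27 ± 0.10 (adjusted p = 0.0548, not called). With the replicate block its adjusted p was 0.0288, and Sec23ip, which encodes a protein that binds SEC23, was also called with the block (0.22, adjusted p = 0.0404). Sec24b (-0.16 ± 0.11, adjusted p = 0.248) and Sec24d (0.09 ± 0.11, adjusted p = 0.523) were not called. In the outer coat, Sec31a was lower (-0.33 ± 0.10, adjusted p = 0.0251), with a call lost without shear stress replicate 1 or 2 (adjusted p up to 0.0819). Sec31a was also not called with upper quartile factors, with edgeR on library totals (-0.10, adjusted p = 0.424) or on FPKM. Its outer coat partner Sec13, Sec31b and the exit site scaffold genes Sec16a and Sec16b had log2 fold changes between -0.33 and 0.18 and were not called.

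Ratios of paralogs within a library do not depend on the scaling between libraries. Of the summed TPM of the Sec24 paralogs, Sec24a took 11.9% ± 1.04 under shear stress and 22.3% ± 3.68 in static culture, and Sec24c took 34.3% ± 1.39 under shear stress and 25.3% ± 1.33 in static culture (SD, n = 4 each). Sec24b took 21.5% ± 0.506 under shear stress and 23.1% ± 2.35 in static culture, and Sec24d took 32.3% ± 1.62 under shear stress and 29.3% ± 3.06 in static culture. Sec24a had the smallest share of the paralogs in every shear stress library. It also had the smallest share in static replicate 2 (17.5%) and static replicate 4 (22.2%), but not in the other static libraries. The ratio of Sar1a to Sar1b was 0.49 ± 0.074 under shear stress and 0.264 ± 0.0627 in static culture. The groups did not overlap for 5 of 11 pairs: Sar1a to Sar1b, Sec24a to Sec24b, Sec24d to Sec24a, Copg1 to Copg2 and Sec61a1 to Sec61a2. Each of these had p = 0.0286 by a two-sided exact permutation test, the smallest possible, and an adjusted p of 0.0629 over the 11 pairs, so that none passed 0.05. The Sec23a to Sec23b ratio was 0.849 ± 0.101 under shear stress and 1.11 ± 0.228 in static culture (exact permutation p = 0.0857, adjusted 0.118).

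**Figure D3:**
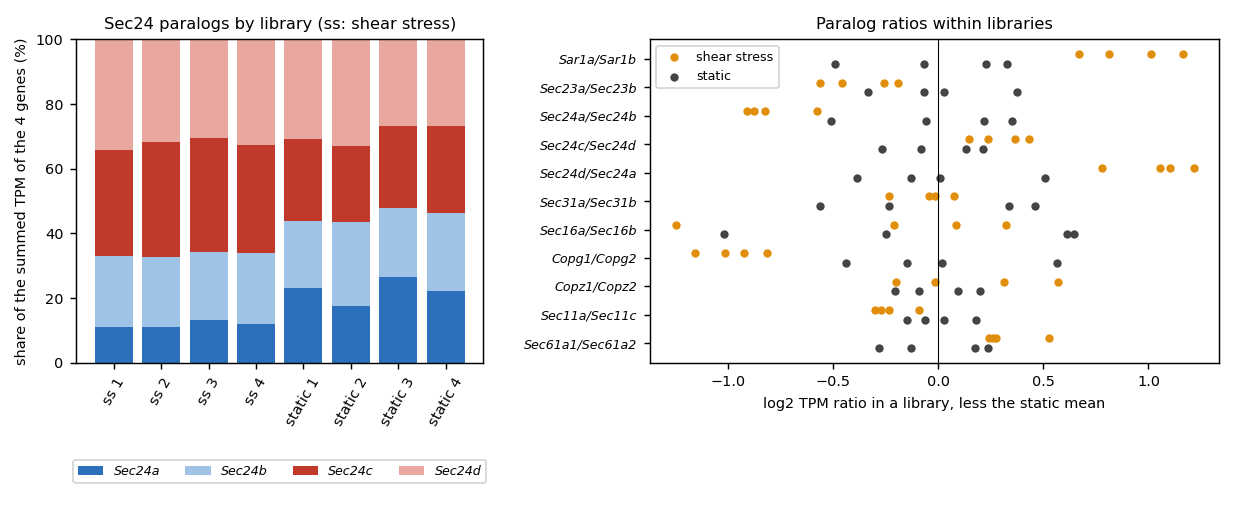
Left, share of each Sec24 paralog in the summed TPM of all 4 genes, per library, where Sec24a takes 11.9% on average under shear stress and 22.3% in static culture. Right, log2 TPM ratio of each of 11 paralog pairs in each library less the static mean of that pair, where orange (shear stress) and grey (static) points separate for 5 pairs.

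Sec24a and Sar1b, the members with the largest falls of the COPII coat, lie next to each other on chromosome 11. GENCODE places Sec24a on the minus strand and Sar1b on the plus strand, so that they are transcribed away from each other with 6.5 kb between the annotated gene starts. Among the 60 genes, the Srp54 copies were the other members closer than 500 kb to each other. Of 9 further tested protein-coding genes within 200 kb of the pair, singled out after values had been seen, 2 were higher, 1 lower and 6 not called. The next gene beyond Sec24a, 0610009B22Rik, was higher (0.59 ± 0.18, adjusted p = 0.0235), and Phykpl was higher by 1.11 ± 0.14. The next gene beyond Sar1b, Jade2, was not called (0.06 ± 0.35, adjusted p = 0.901), and the ubiquitin-conjugating enzyme gene Ube2b was lower (-0.33 ± 0.08, adjusted p = 0.00874).

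**Figure D4:**
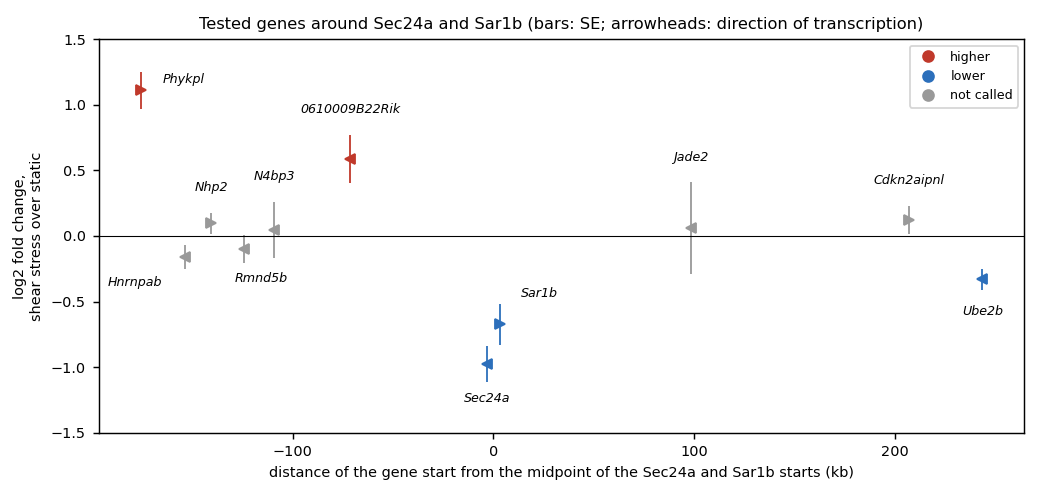
Log2 fold change (± SE) of the 11 tested protein-coding genes around the Sec24a and Sar1b pair, by the distance of each gene start from the midpoint between their starts in kb, with arrowheads in the direction of transcription. Sec24a and Sar1b are the lowest points, at -0.98 and -0.67, and the genes beside them are at or above 0.

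In the COPI coatomer 1 of 9 genes was higher, 1 lower and 7 not called. The largest change was in Copg2, a gamma subunit, which had 22.6, 20.1, 23.9 and 23.2 CPM in the shear stress libraries and 12.3, 10.4, 8.94 and 14.8 CPM in the static libraries. All shear stress libraries were above all static libraries (0.95 ± 0.16, adjusted p = 0.00121). Copg1, the other gamma subunit, was not called, and the TPM ratio of Copg1 to Copg2 was 5.94 ± 0.587 under shear stress and 12.04 ± 3.72 in static culture. Arcn1, the delta subunit, had 212, 219, 245 and 246 CPM in the shear stress libraries and 259, 288, 299 and 279.8 CPM in the static libraries (-0.29 ± 0.09, adjusted p = 0.0247). Its groups did not overlap, but the call was lost without shear stress replicate 1 or 2 or static replicate 3 (adjusted p up to 0.0916), after which no COPI gene was called lower. Arcn1 was also not called with upper quartile factors, with edgeR on library totals (-0.06, adjusted p = 0.603) or on FPKM. Copa, the alpha subunit, was not called without a block and was called lower with the replicate block (-0.17, adjusted p = 0.0391). Cope, the epsilon subunit and the most abundant COPI gene per length, had 161, 155, 153 and 149.7 TPM in the shear stress libraries and 136, 108, 155 and 143 TPM in the static libraries, and its counts differed by -0.04 ± 0.14 (adjusted p = 0.834). The other uncalled COPI genes had log2 fold changes between -0.17 and 0.08.

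Of 9 tested p24 genes, 1 was higher, 2 lower and 6 not called. Tmed3 had 22.4, 22.9, 18.8 and 25.8 CPM in the shear stress libraries and 10.7, 8.78, 12.6 and 11.6 CPM in the static libraries. This was the largest rise among the members, with every shear stress library above every static library (1.04 ± 0.15, adjusted p = 0.000505). Tmed5, which takes part in the export of GPI-anchored proteins, had 113, 91.3, 122 and 95.9 CPM in the shear stress libraries and 163, 153, 164 and 129 CPM in the static libraries (-0.53 ± 0.12, adjusted p = 0.00643). Tmed4 had 61.2, 49.6, 58.2 and 63.7 CPM in the shear stress libraries and 78.4, 63.9, 90.5 and 79.7 CPM in the static libraries (-0.42 ± 0.13, adjusted p = 0.0190). Both were below the static libraries in every shear stress library, and the call of Tmed4 was lost without shear stress replicate 2 (adjusted p = 0.0532), leaving 1 gene called lower. Neither was called on FPKM or with edgeR on library totals (Tmed5 -0.30, adjusted p = 0.0515, and Tmed4 -0.20, adjusted p = 0.155). With upper quartile factors the call of Tmed4 was lost too. The genes of the core partners, Tmed2 and Tmed10, were not called, and Tmed2 was the most abundant p24 gene per length. Tmed2 had 240.2, 288, 269 and 238 TPM in the shear stress libraries and 202, 234, 218 and 227 TPM in the static libraries, and its counts differed by 0.00 ± 0.08 (adjusted p = 0.975). The other uncalled p24 genes had log2 fold changes between -0.44 and 0.09. Tmed6 was at 0.13, 0.14, 0 and 0 TPM in the shear stress libraries and 0, 0, 0 and 0.12 TPM in the static libraries and was not tested.

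Of the SEC22 genes, 1 of 3 was higher. Sec22a had 18.1, 17.7, 17.8 and 17.9 CPM in the shear stress libraries and 12.5, 12.6, 9.17 and 14.9 CPM in the static libraries, without overlap (0.54 ± 0.15, adjusted p = 0.0137). Sec22b, the most abundant of them and a SNARE that fuses vesicles between ER and Golgi, had 38.4, 41.8, 43.4 and 42.5 TPM in the shear stress libraries and 30.2, 40.7, 37.9 and 35.3 TPM in the static libraries. On counts it was at -0.02 ± 0.10 (adjusted p = 0.896), and Sec22c was not called either.

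The mean level of the members spanned a wide range per length, from 0.0488 TPM for Tmed6 to 263 TPM for Sec61b over all 8 libraries. The summed TPM was 4467 ± 123.2 TPM under shear stress and 3949.7 ± 232 TPM in static culture (SD, n = 4 each), and that of the translocon genes was 1297 ± 24.4 TPM under shear stress and 1107 ± 114 TPM in static culture. The direction of such sums depended on the unit and on the scaling, which changed together. TPM are scaled to the same total in each library, and the normalised CPM use TMM factors. The log2 difference of shear stress minus static for all members was 0.18 in TPM and -0.08 in normalised CPM, and it was positive in TPM and negative in CPM for the COPI, COPII, p24, translocon and SRP genes.

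Lists of neighbouring functions, written from textbook roles, were set beside the members in the same fit. Of their 147 genes, all tested, 31 were higher, 32 lower and 84 not called, and 20 were higher without shear stress replicate 4. For fits with a library left out, the share of all tested genes called is not given. Such counts are not read here as a result about a list. With the replicate block 36 of the 147 genes were higher and 43 lower. The largest relative move of a list was in membrane insertion and glycosylation, with 6 of 28 lower in place of 3. Over all tested genes the share called lower moved from 23.7% to 31% with the block. Of 12 regulators of secretory capacity, 4 were higher, 5 lower and 3 not called. Atf6, which encodes a sensor of unfolded proteins in the ER, averaged 72.1 ± 7.87 CPM under shear stress and 183 ± 24.1 CPM in static culture (SD, n = 4 each; -1.35 ± 0.12, adjusted p = 7.19e-05). Eif2ak3, the gene of the sensor kinase PERK, averaged 20.1 ± 4.45 CPM under shear stress and 70.2 ± 16.9 CPM in static culture (-1.80 ± 0.21, adjusted p = 0.000217). Creb3l2, a transcription factor cleaved from the ER membrane that drives COPII genes in cartilage of mice, averaged 149 ± 31.1 CPM under shear stress and 50.5 ± 6.60 CPM in static culture (1.56 ± 0.17, adjusted p = 0.000138). The groups did not overlap for any of these 3 genes. Xbp1 and Atf6b, also regulators of the unfolded protein response and named after their values were seen, were higher. Xbp1 averaged 264 ± 37.4 CPM under shear stress and 158 ± 11.5 CPM in static culture, without overlap (0.74 ± 0.12, adjusted p = 0.000886). Atf6b averaged 30.7 ± 7.20 CPM under shear stress and 17.8 ± 4.36 CPM in static culture, and its libraries overlapped (0.79 ± 0.21, adjusted p = 0.0124).

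Of 27 genes of retrieval from the Golgi and of fusion, 8 were higher, 4 lower and 15 not called, with 2 lower without shear stress replicate 1, 3 or 4 or static replicate 1 or 3. Arfgap1, which triggers uncoating of COPI vesicles, averaged 55.4 ± 4.36 CPM under shear stress and 27.8 ± 0.987 CPM in static culture (0.998 ± 0.09, adjusted p = 7.72e-05), and the SNARE gene Gosr1 averaged 40.5 ± 1.21 CPM under shear stress and 20.5 ± 1.64 CPM in static culture (0.98 ± 0.10, adjusted p = 9.64e-05). Arfgap3 changed by 0.92 ± 0.16. Kdelr3, a receptor that returns ER proteins, had the highest log2 fold change of these lists (2.22 ± 0.41, adjusted p = 0.00181) at a low level, 3.51 ± 1.63 CPM under shear stress and 0.745 ± 0.226 CPM in static culture, and was named after its value was seen. Of 31 genes of ER exit, cargo and tethering, 6 were higher, 7 lower and 18 not called. None was higher without shear stress replicate 4, a fit for which the share of all tested genes called is not given. Mia2, which helps load large cargo at ER exit sites, averaged 495 ± 21.9 CPM under shear stress and 686 ± 69.7 CPM in static culture (-0.47 ± 0.10, adjusted p = 0.00331), and the tethering genes Trappc8 and Trappc10 changed by -0.61 ± 0.11 and -0.46 ± 0.09.

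Of 21 ER folding genes 2 were higher, 4 lower and 15 not called, with 2 lower without shear stress replicate 4 and 4 higher without static replicate 3. Dnajb9, a cochaperone of BiP, averaged 62.5 ± 3.11 CPM under shear stress and 118 ± 21.9 CPM in static culture (-0.91 ± 0.14, adjusted p = 0.000659). Sdf2 changed by -0.64 ± 0.09, and the disulphide isomerase gene Txndc5 by 0.58 ± 0.12. Of 28 genes of membrane insertion and glycosylation 5 were higher, 3 lower and 20 not called, with 3 higher without shear stress replicate 4 or static replicate 1 and 5 lower without static replicate 2. Get1, a receptor for tail-anchored proteins, changed by 0.76 ± 0.13, Emc1 by 0.60 ± 0.13 and Bag6 by -0.35 ± 0.08. Of 28 genes of retromer, clathrin and exocyst, which serve other steps of traffic, 6 were higher, 9 lower and 13 not called, with 4 or 5 lower without shear stress replicate 1 or 3 or static replicate 1. Exoc1, Ap3m1 and Exoc8 changed by 1.37 ± 0.19, 1.54 ± 0.21 and 1.26 ± 0.19. The median log2 fold changes of the lists lay between -0.20 and 0.09, against -0.01 for all tested genes.

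**Figure D5:**
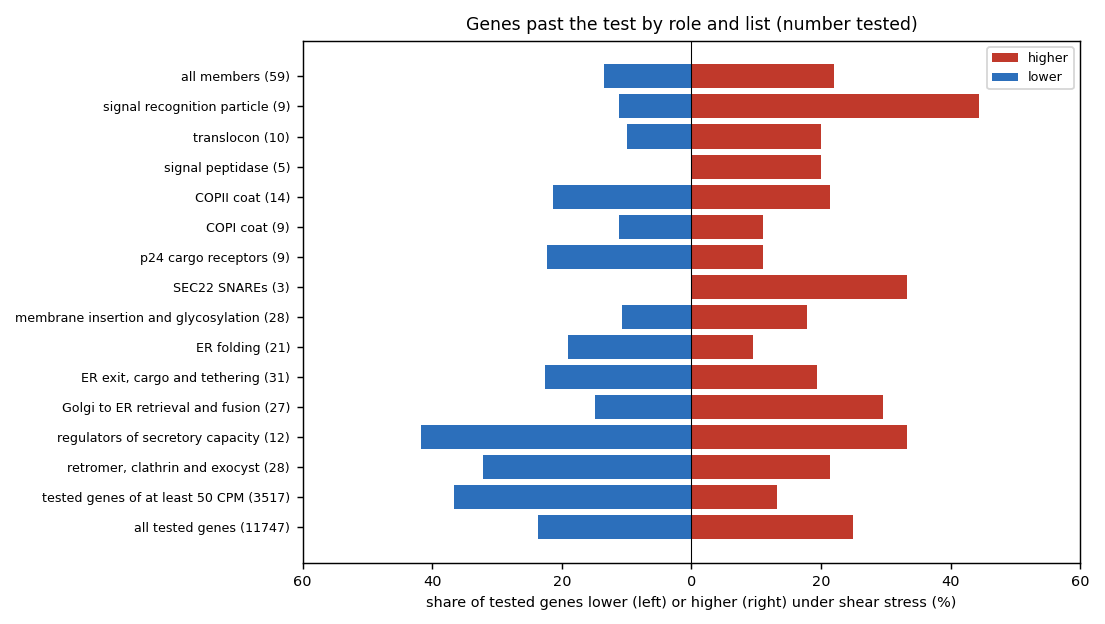
Share of tested genes called higher (red, right) or lower (blue, left) under shear stress for the members, their roles, 6 lists of neighbouring functions, tested genes of at least 50 CPM and all tested genes, with the number tested in brackets. The members stand at 35.6% called and all tested genes at 48.6%.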

How the data were processed

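Messenger RNA of 8 mouse hepatocyte libraries was analysed, 4 under shear stress and 4 static, with groups and replicate numbers from the sample titles. Per the submitters' processing notes, HISAT, Bowtie2 and RSEM and the build GRCm38 (mm10) were used. Their versions, the annotation and the strand setting are not given in the labels or file headers. The expected counts, TPM and FPKM were computed by the authors and deposited for 17276 genes per library. Between 9.31% and 10.7% of the expected counts were not whole by more than 1e-09.

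Counts were rounded, filtered with filterByExpr and scaled with TMM factors (1.08 ± 0.0433 in shear stress and 0.926 ± 0.0369 in static libraries, SD, n = 4), which left 11747 genes, followed by edgeR 4.0.16 (quasi-likelihood F test, R 4.3.3) with Benjamini-Hochberg adjustment and a threshold of 0.05. Fold changes are shear stress over static, with a standard error from the F statistic (log2 fold change over its square root). The procedure was also run on simulated counts with few changed genes, no pairing of replicates and no built-in shift between the groups. These data differ in all of these points, so that run does not test how they affect the calls here. CPM are on the TMM scale. Levels of different genes and ratios of paralogs use the deposited TPM, with a two-sided exact permutation test over the libraries. Alternatives used upper quartile and RLE factors, library totals, DESeq2 1.42.0, other filters, limma 3.58.1 on log2(FPKM + 1) and log2(FPKM + 0.1) for genes of a mean FPKM of at least 1, the replicate number as a block, and each library left out. All pairs of libraries within a group differed beyond counting noise (chi-square over degrees of freedom at least 45.3). At these depths 3 counts are between 0.167 and 0.199 CPM before scaling, which covers counting error only.

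Both groups share the replicate numbers. Deviations from the group mean correlated, across 8446 genes, at 0.679, 0.642, 0.56 and 0.467 for equal numbers and at no more than -0.018 for unequal ones, so equal numbers were taken as pairs. Deviations cancel out within a group, so positive values for equal numbers make those for unequal numbers negative on balance. The sign of the latter is thus no separate support for pairing. What a number marks is not labelled, and the main test had no block. Values with the block are given for the members whose call it changes, and as counts for markers and lists.

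The members and lists were chosen with earlier results of these data known. Within each role, values in every library are given for up to 4 called members with the smallest p, the most abundant member and called members against the majority. In each list of other functions up to 3 called genes with the smallest p are named, with group means or fold changes in place of library values. Paralogs may be named, and the remaining members are given by ranges or where the block or a left-out library changes their call. Proteins were not compared, since no protein sequences were used here. Coordinates, promoters and gene starts are from RefSeq (GRCm38.p6), in which all 60 genes matched by Gene ID, and strands are from GENCODE M21 of the same build.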

Additional observations from a re-analysis of the deposited data

Results flagged for a closer look

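Of 80 groups of 4 libraries examined, 2 held a library far from the other libraries of its group by Dixon's test, where chance flags about 1 in 20 groups. For Sec24c, shear stress replicate 1 was at 111 CPM and the other shear stress libraries between 124 and 125.3 CPM. For the log2 TPM ratio of Sec61a1 to Sec61a2, shear stress replicate 2 was at 3.89. Without these libraries, Sec24c was still called and the difference of the ratio kept its sign.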

How the results depend on the processing

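In all 17 settings the 21 called members kept their direction, and 14 were called throughout. The lower members Arcn1, Sec31a, Tmed4 and Tmed5 lost their calls with library totals and with FPKM at either pseudocount. The calls of Arcn1, Sec31a and Tmed4 were also lost with upper quartile factors and with some single libraries left out. The higher members Sar1a, Srp54c and Ssr2 were called in every scaling. They lost their calls with some single libraries left out, and Sar1a and Srp54c also without a filter on low counts. The cause was not tested. The replicate block called 15 members higher and 10 lower (background 30.1% and 31%), the 21 among them, and changed no member's call beyond the 4 it added (Copa, Sec23a, Sec23ip and Ssr3).

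Against 13 members higher and 8 lower, library totals gave 21 and 4. Subtracting the median of all tested genes from the fold changes, an alternative chosen after seeing the data, left 21 and 4. The adjusted p-values were not recomputed, so these counts could change only where a sign turned. Whether the excess of higher members remains without the common shift was not tested by it. FPKM with limma gave 23 and 4 with either pseudocount (background 35.4% and 12.8% with a pseudocount of 1, 35.2% and 12.7% with 0.1), and upper quartile factors 5 lower (background 16.9%). A minimum of 1.5-fold left 5 members higher and 2 lower of 59 tested. Of all 11747 tested genes, 2203 were higher and 1744 lower at that minimum. Leaving out single libraries gave 10 to 13 higher and 5 to 9 lower, without a share over all tested genes beside them. Of the 147 genes in the lists of other functions, 31 were higher and 32 lower in the main fit. Library totals gave 49 and 8 (background 35.4% and 13.1%), FPKM 48 and 7, and upper quartile factors 17 lower. At 1.5-fold 19 and 7 remained, and 20 to 34 were higher with single libraries left out. The block gave 36 and 43 (background 30.1% and 31%). ER folding had 6 lower in place of 4, and membrane insertion and glycosylation 6 in place of 3. Retromer, clathrin and exocyst had 12 lower in place of 9. Retrieval and fusion had 10 higher and 6 lower in place of 8 and 4. Of the 5 paralog ratios past the unadjusted exact permutation test, 0 passed with a sign-flip test on the replicate block (smallest possible p = 0.125) and 0 to 0 with a library left out (smallest possible 0.0571), since fewer arrangements exist. The ratio of Sec61a1 to Sec61a2 did not pass when expected counts replaced TPM.

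The log2 difference of summed levels was 0.13 in TPM and -0.13 in normalised CPM for COPI, 0.09 and -0.11 for COPII, 0.32 and 0.076 for SEC22, 0.15 and -0.085 for p24, 0.29 and 0.12 for signal peptidase, 0.19 and -0.070 for SRP, 0.23 and -0.061 for translocon genes, and 0.18 and -0.081 for all members. Among single genes and paralog ratios, signs turned for these, none of them called. Cope was at 0.10 with upper quartile factors, 0.19 with library totals, 0.0076 with the 5 CPM filter, 0.19 with FPKM at either pseudocount and -0.17 to 0.042 with single libraries left out. Sec22b was at 0.12, 0.21, 0.030, 0.20 and 0.20 in these settings and at -0.081 to 0.022. Tmed2 was at -0.0039 with RLE factors, -0.0038 with DESeq2, -0.0053 without a filter and -0.022 to 0.032 with libraries left out. Sec24b was at 0.058 with library totals and 0.065 and 0.068 with FPKM. With single libraries left out, Spcs1 ranged from -0.012 to 0.11, Sec61b from -0.10 to 0.17, the ratio of Sec16a to Sec16b from -0.60 to 0.066 and that of Sec31a to Sec31b from -0.24 to 0.10.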
